A study of Homo sapiens with 2 samples.

Results

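Collagen chains and the enzymes that modify them were examined in Huh7 cells, an established human hepatocellular carcinoma cell line, with CD24 knocked down by RNA interference. The set comprised every gene whose array symbol has the form of a collagen chain gene (COL, a number, A and a number), plus 14 named genes of the prolyl 4-hydroxylase, lysyl hydroxylase, lysyl oxidase and procollagen-processing families. It held 57 genes, on 143 probe sets, of the 19775 genes named by 1 symbol on the array. One culture stably expressed, from a lentivirus, a short hairpin RNA (shRNA) directed at the transcript of CD24, a small surface glycoprotein, and the control culture expressed a non-target hairpin delivered in the same way. Both were grown in the same serum-containing medium, and the total RNA of either culture went onto 1 Affymetrix array. Whether the transduced cells were a pool or a clone, and how many CD24 hairpins were used, is not given in the sources used here.

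Each group held 1 array: differences have no replicate check and carry no p-values, and precision is limited by that number of arrays. The deposited log2 values had been centred on 0 probe set by probe set: the 2 arrays have equal and opposite values, and the level of a transcript is not in the table. The quantity given below is the log2 difference, CD24 shRNA minus control, taken as the mean over the probe sets of a gene. Its error is the SD over those probe sets, which reflects how far they disagree and leaves out variation from culture to culture. Pooled within genes, this SD was 0.27 over all 10523 genes with several probe sets and 0.52 over the 43 collagen and enzyme genes with several. In RNA from a whole culture, fewer cells of a kind and less RNA per cell cannot be told apart. CD24 itself had a centred value of -0.68 on the CD24 shRNA array and 0.68 on the control array, a log2 difference of -1.37 ± 0.38 (SD, 6 probe sets).

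Collagens are secreted proteins built from chains that wind around each other in a helix of glycine-led repeats. Fibrillar chains form the rope-like fibrils of connective tissue, type IV chains form the sheet of basement membranes, and many smaller types decorate fibrils, anchor membranes or span the cell surface. Inside the cell, prolyl hydroxylases stabilise the helix and lysyl hydroxylases prepare it for crosslinking; outside, proteinases trim the ends of procollagen and lysyl oxidases crosslink the fibrils. In liver, stellate cells and fibroblasts are the main source of fibrillar collagen, and in fibrosis types I and III accumulate.

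Single collagen genes lay far from 0 in both directions, while the median of the set was near 0. COL3A1, which encodes the type III fibrillar chain, was 5.09-fold higher on the CD24 shRNA array. The fibrillar chain gene COL11A1 was 3.30-fold lower, PCOLCE, an enhancer of procollagen trimming, 3.23-fold lower, and the type IX chain gene COL9A3 3.18-fold lower. At 2-fold, 1 of 57 genes (1.75%) was higher and 3 of 57 (5.26%) were lower, beside 0.632% higher and 0.485% lower among all genes on the array. The median over the 57 genes was 0.02, against 0 over all genes, with 30 genes above and 27 below 0. The middle of the distribution was somewhat wider, with an interquartile range of 0.38 for the 57 genes and 0.28 for all genes. At 1.5-fold, 3 genes were higher and 5 lower, or 5.26% and 8.77%, beside 2.63% and 2.38% of all genes.

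**Figure D1:**
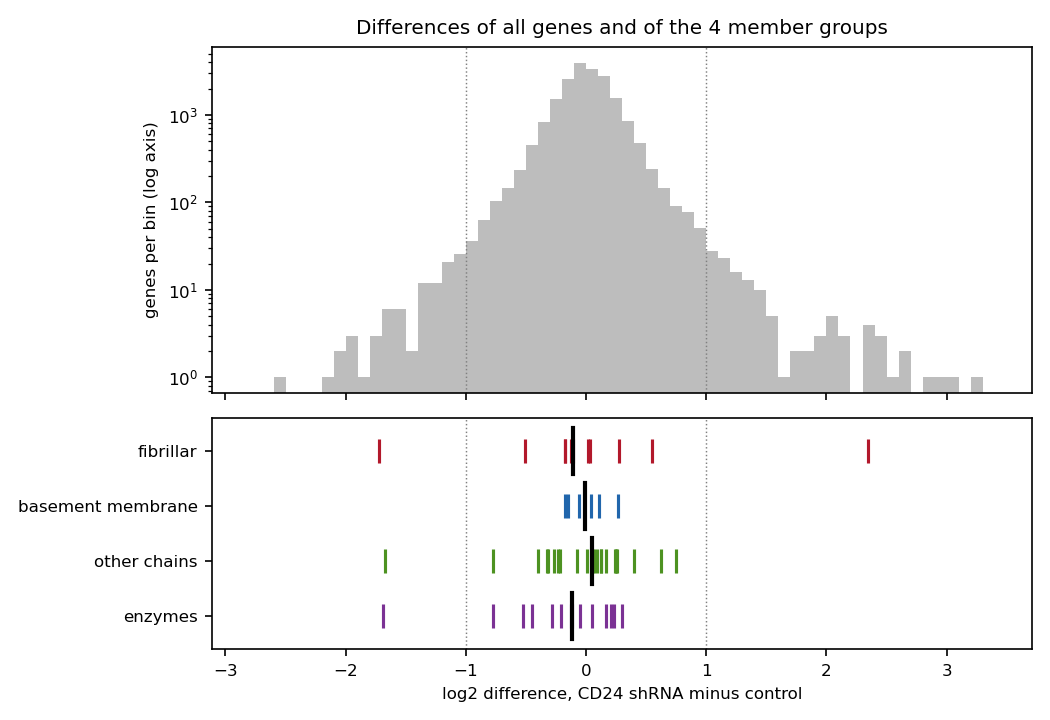
The upper panel shows the number of genes (log axis) at each log2 difference, CD24 shRNA minus control, over all 19775 genes. In the lower panel each tick is 1 of the 57 collagen or enzyme genes and each black bar the median of its group; the dotted lines mark 2-fold. COL3A1 lies alone beyond the upper line, and COL11A1, COL9A3 and PCOLCE lie beyond the lower one.

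Among the fibrillar chains, 5 of 11 genes lay above 0 and 6 below, with a median of -0.11 that became 0.01 when the arrays were scaled by their hybridisation controls. COL3A1 chains form type III fibrils, which are mixed with type I in elastic and healing tissues. Its mean centred value was 1.17 on the CD24 shRNA array and -1.17 on the control array, a log2 difference of 2.35 ± 1.77 (SD, 5 probe sets). The probe sets fell into separate ranges: 3 lay at 3.78, 3.67 and 3.41, and the other two at 0.77 and 0.11. All 5 were higher on the CD24 shRNA array. The names of the 3 with large differences end in _s_at or _x_at, a suffix of probe sets that may match more than 1 transcript. Without such probe sets COL3A1 lay at 0.44, below 2-fold.

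For part of the probe sets, the digits of the table show that the dimmer array was below a log2 level of 4, near the floor of such arrays. This was so for 4 of the 5 COL3A1 probe sets. On the probe sets with differences of 3.67 and 3.41, the control array was therefore below 4 and the CD24 shRNA array below 7.67 and 7.41. On those at 0.77 and 0.11 the brighter array was below 4.77 and 4.11, so both arrays were near the floor. The COL3A1 value of 0.44 rests on these probe sets alone. The fifth probe set, at 3.78, was not placed there and has no such bound, and alone it gives the COL3A1 value without dim probe sets.

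COL5A2, a type V chain that helps set the width of type I and III fibrils, is the neighbour of COL3A1 on chromosome 2. Its centred value was 0.28 on the CD24 shRNA array and -0.28 on the control array, a log2 difference of 0.55 ± 0.02 (SD, 2 probe sets), or 1.47-fold. Both COL5A2 probe sets lay on the same side within 0.02 of their mean, neither carries that suffix, and neither was shown to be dim. Its partner chains in type V collagen were closer to 0: COL5A1 lay at 0.02 ± 0.21 (SD, 3 probe sets) and COL5A3 at 0.03 ± 0.05 (SD, 2 probe sets).

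The type I chains, the main collagen of scar, lay on opposite sides of 0. COL1A2 lay at 0.28 ± 0.20 (SD, 3 probe sets), with centred values of 0.14 on the CD24 shRNA array and -0.14 on the control array, and all of its probe sets were above 0. COL1A1 lay at -0.13 ± 0.30 (SD, 5 probe sets), with 1 probe set above 0, 3 below and 1 at 0. The COL1A1 value is smaller than the SD over its own probe sets.

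COL11A1 encodes a chain of type XI collagen, which nucleates the thin fibrils of cartilage together with type II and is also made by some tumours. Its mean centred value was -0.86 on the CD24 shRNA array and 0.86 on the control array, a log2 difference of -1.72 ± 1.02 (SD, 3 probe sets). The probe sets lay at -2.56, -2.02 and -0.59, all lower on the CD24 shRNA array. The smallest difference came from the probe set that was dim on at least 1 array, whose brighter array was below 4.59. Its type XI partners lay far closer to 0, COL11A2 at -0.18 ± 0.16 and COL2A1, the type II chain, at -0.11 ± 0.03 (SD, 2 probe sets each).

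COL27A1, a long fibrillar chain of cartilage, lay at -0.51 ± 0.50 (SD, 5 probe sets). Its probe sets disagreed as those of COL3A1 did: 3 lay at -0.95, -0.93 and -0.73, and the remaining pair at 0 and 0.06. The probe set at 0.06 was dim, with its brighter array below 4.06, so both arrays were near the floor there. COL24A1, a related fibrillar chain, lay at -0.18 on 1 dim probe set. All 5 fibrillar chains that are known from cartilage and bone (COL2A1, COL11A1, COL11A2, COL24A1 and COL27A1) were thus below 0, whereas 5 of the 6 interstitial chains of types I, III and V were above it. This division was drawn after the values were seen and is a description. Scaling by the hybridisation controls raises each difference, and the median of all genes, by 0.11 and leaves COL2A1 just above 0, so that 4 of the 5 cartilage chains are below it.

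**Figure D2:**
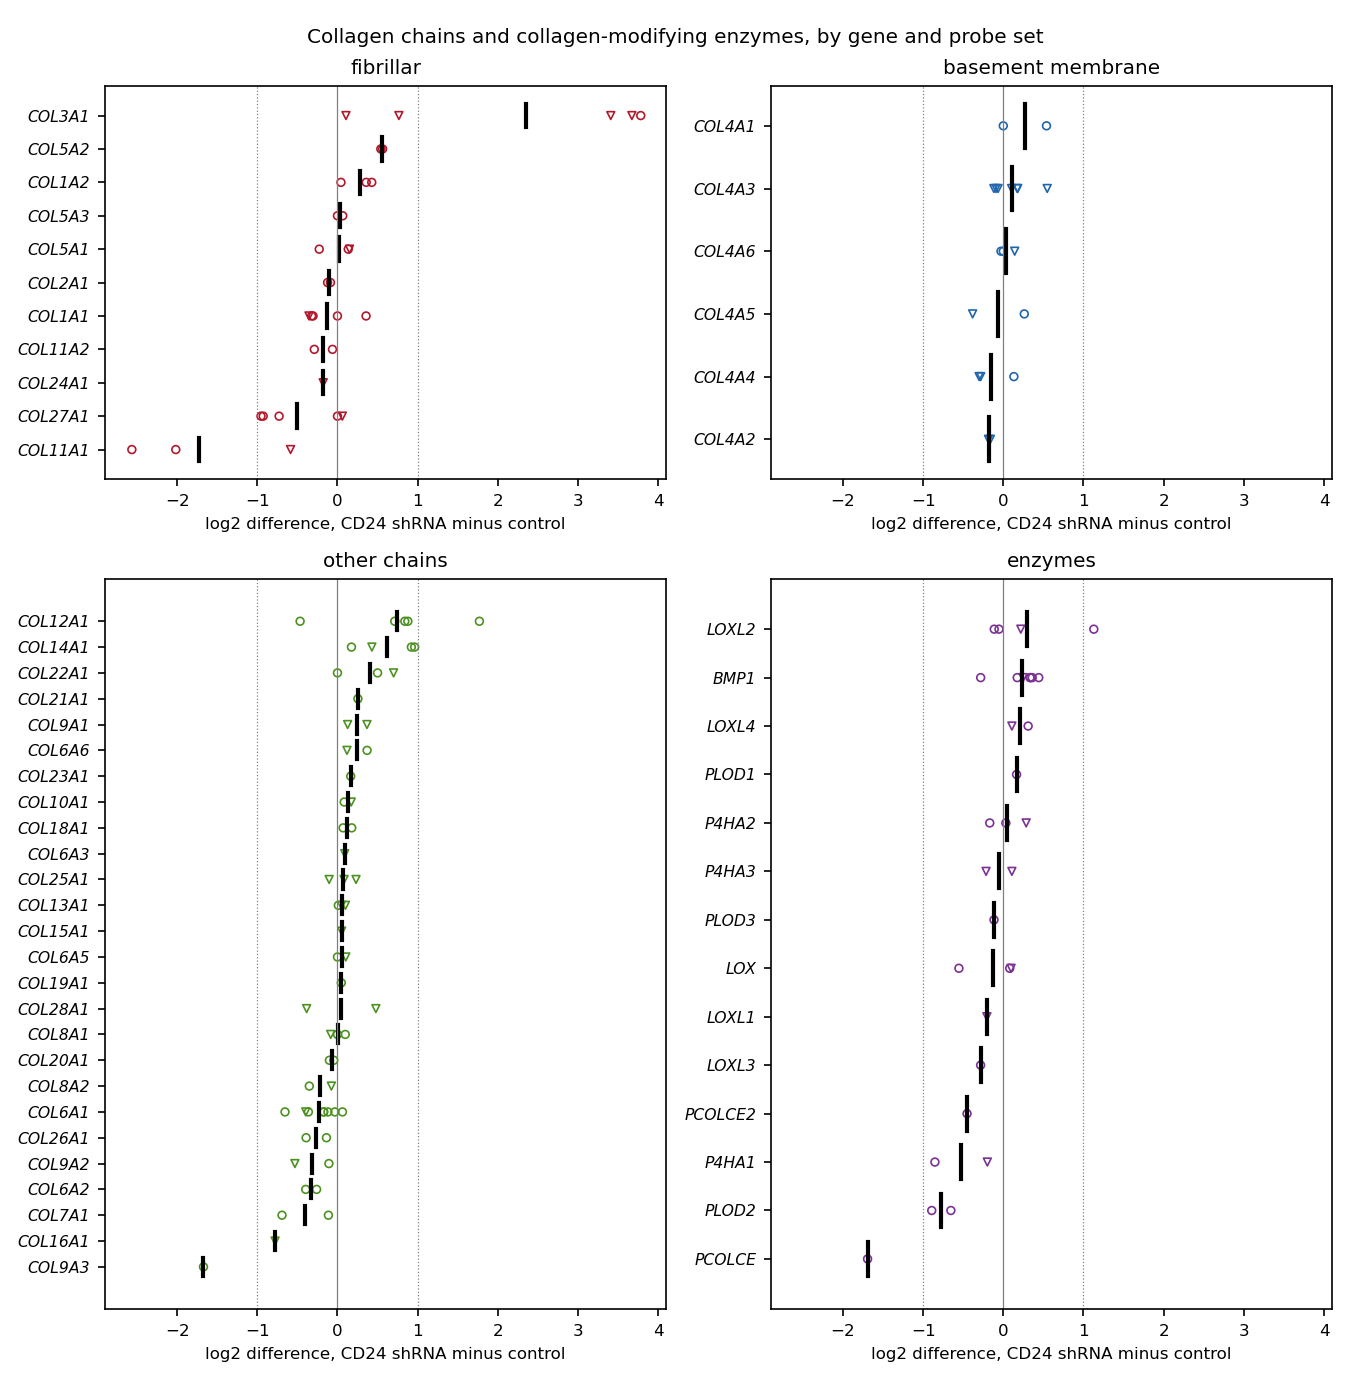
Log2 difference, CD24 shRNA minus control, of the 57 genes in 4 groups. Open symbols are single probe sets, triangles those whose dimmer array was shown to be below a log2 level of 4, black bars are gene means and dotted lines mark 2-fold. The probe sets of COL3A1, COL11A1, COL12A1, COL27A1 and LOXL2 spread widely. The gene means of the type IV chains stay between -0.17 and 0.27, and their single probe sets between -0.38 and 0.55.

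Basement membrane chains were close to 0 throughout. The 6 type IV genes ranged from -0.17 to 0.27 with a median of -0.01, 3 above and 3 below 0, and all 6 lay within the pooled probe set SD, COL4A1 only just. COL4A1 and COL4A2 encode the chains of the common type IV network and are transcribed in opposite directions from a shared promoter region. COL4A1 lay at 0.27 ± 0.38 (SD, 2 probe sets), from probe sets at 0.54 and 0, and COL4A2 at -0.17 ± 0.02 (SD, 2 probe sets), both of them dim. COL4A3, COL4A4 and COL4A5 form the network of the kidney glomerulus and lay at 0.10, -0.15 and -0.06, and COL4A6, of smooth muscle and epidermal membranes, at 0.04. Dim probe sets were frequent here: 13 of 19, or 68.4%, had a dimmer array placed under a log2 level of 4, all 7 of COL4A3 among them, against 25.6% of all probe sets with 1 symbol. Small differences on such probe sets are not evidence of an unchanged level.

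The other chains were 26 genes, 17 above and 9 below 0, with a median of 0.05; 4 passed 1.5-fold, 2 in each direction. All 4 belong to the fibril-associated collagens, short-helix chains that sit on the surface of larger fibrils. COL12A1 encodes type XII collagen, which coats type I fibrils in tendon and in tissues under strain. Its mean centred value was 0.37 on the CD24 shRNA array and -0.37 on the control array, a log2 difference of 0.75 ± 0.80 (SD, 5 probe sets). The probe sets lay at 1.77, 0.88, 0.84, 0.71 and -0.47, so 4 were higher and 1 lower on the CD24 shRNA array. Without probe sets of the _s_at or _x_at kind, COL12A1 lay at 1.11, above 2-fold.

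COL14A1, whose type XIV product also binds type I fibrils, had centred values of 0.31 on the CD24 shRNA array and -0.31 on the control array. The log2 difference was 0.62 ± 0.38 (SD, 4 probe sets), and the probe sets at 0.96, 0.92, 0.43 and 0.17 were all above 0. COL22A1, found at tissue junctions, lay at 0.40 ± 0.36 (SD, 3 probe sets). Of the 10 fibril-associated genes, 6 lay above and 4 below 0.

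COL9A3 encodes a chain of type IX collagen, which decorates cartilage fibrils of types II and XI. Its centred value was -0.84 on the CD24 shRNA array and 0.84 on the control array, a log2 difference of -1.67 on 1 probe set, with a name ending in _s_at. The partner chains of type IX lay at -0.32 ± 0.30 for COL9A2 and 0.25 ± 0.17 for COL9A1 (SD, 2 probe sets each). Both COL9A1 probe sets were dim, as was the COL9A2 probe set at -0.53, while the other COL9A2 probe set lay at -0.11. COL16A1, a minor fibril-associated chain, was 1.71-fold lower (-0.78, 1 probe set), with centred values of -0.39 on the CD24 shRNA array and 0.39 on the control array. The COL16A1 probe set was dim, with its brighter array below 4.78, so this difference lies near the floor. The remaining fibril-associated genes were closer to 0, with COL21A1 at 0.25, COL19A1 at 0.05 and COL20A1 at -0.07.

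The beaded filaments of type VI collagen surround cells in most tissues. COL6A1 lay at -0.23 ± 0.23 (SD, 8 probe sets), and 7 of these were below 0, and COL6A2, its neighbour on chromosome 21, at -0.33 ± 0.10 (SD, 2 probe sets). Both obligatory partners were therefore slightly lower on the CD24 shRNA array, by amounts near the pooled probe set SD. COL6A3, the third classical chain, lay at 0.09 on 1 dim probe set, and COL6A5 and COL6A6 at 0.05 and 0.24. COL7A1, which forms the anchoring fibrils under skin, lay at -0.40 ± 0.41 (SD, 2 probe sets), from probe sets at -0.69 and -0.11.

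The rest stayed within the pooled probe set SD. COL18A1, the source of the fragment endostatin and a basement membrane collagen abundant in liver, lay at 0.12 ± 0.08 (SD, 2 probe sets), and COL15A1, its relative, at 0.05. The transmembrane chains COL13A1, COL23A1 and COL25A1 lay at 0.05, 0.17 and 0.07. The network chains COL8A1, COL8A2 and COL10A1 lay at 0.00, -0.21 and 0.13, and COL26A1 and COL28A1 at -0.26 and 0.05. COL28A1 rested on dim probe sets of opposite sign, at 0.48 and -0.38.

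**Figure D3:**
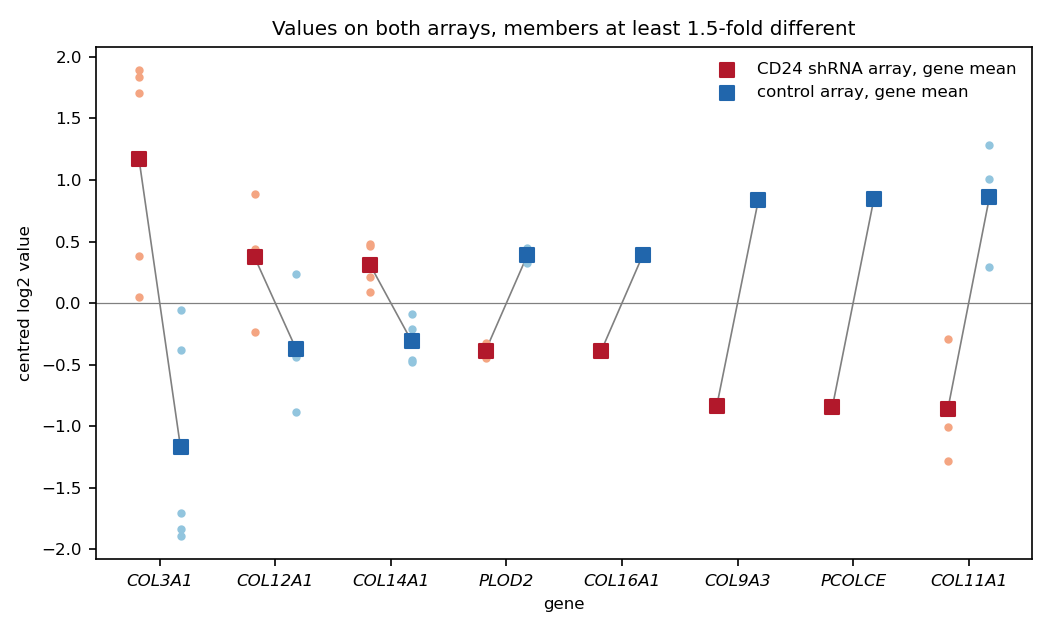
Centred log2 values on the CD24 shRNA array (left of each pair) and the control array (right) for the 8 genes at least 1.5-fold different. Squares are gene means joined by a line, and small points are single probe sets. COL3A1, COL12A1 and COL14A1 are higher on the CD24 shRNA array, and PLOD2, COL16A1, COL9A3, PCOLCE and COL11A1 lower.

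Of the 14 enzyme and processing genes, 5 lay above and 9 below 0, with a median of -0.12, and the 2 at least 1.5-fold different were both lower on the CD24 shRNA array. These were PCOLCE and PLOD2. PCOLCE encodes a secreted glycoprotein that binds the end of procollagen and speeds its removal by the proteinase BMP1. Its centred value was -0.85 on the CD24 shRNA array and 0.85 on the control array, a log2 difference of -1.69 on 1 probe set that was not shown to be dim. Its homologue PCOLCE2 lay at -0.45, also on 1 probe set. BMP1, the procollagen C-proteinase itself, lay at 0.23 ± 0.24 (SD, 7 probe sets), and 6 of these were above 0.

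PLOD2 encodes the lysyl hydroxylase that acts on the ends of collagen chains and so directs the stable type of crosslink found in scar. Its centred value was -0.39 on the CD24 shRNA array and 0.39 on the control array, a log2 difference of -0.77 ± 0.17 (SD, 2 probe sets), or 1.71-fold lower. The probe sets lay at -0.89 and -0.65, and both have names ending in _s_at. The other lysyl hydroxylases, which act mainly within the helix, lay near 0, PLOD1 at 0.17 and PLOD3 at -0.12, on 1 probe set each.

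P4HA1 encodes the catalytic subunit of the main prolyl 4-hydroxylase. It had centred values of -0.26 on the CD24 shRNA array and 0.26 on the control array, with a log2 difference of -0.53 ± 0.46 (SD, 2 probe sets). The probe sets lay at -0.85 and -0.20, the first with a name ending in _s_at and the second dim. P4HA2 and P4HA3, the alternative catalytic subunits, lay at 0.05 ± 0.23 (SD, 3 probe sets) and -0.05 ± 0.23 (SD, 2 probe sets), so P4HA1 and PLOD2 were the lowest of their families.

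The lysyl oxidases had no member beyond 1.5-fold. LOX, the founding crosslinking enzyme, lay at -0.13 ± 0.37 (SD, 3 probe sets), with probe sets at 0.10, 0.08 and -0.55. LOXL2, which is known from fibrotic liver and invasive tumours, lay at 0.30 ± 0.57 (SD, 4 probe sets): 1 probe set was at 1.13 and the others at 0.22, -0.05 and -0.11. The LOXL2 mean thus rested on a single probe set, and its name, like those of the other LOXL2 probe sets, ends in _s_at. LOXL1, LOXL3 and LOXL4 lay at -0.20, -0.28 and 0.21.

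Sequence upstream of the start of transcription was available from RefSeq (GRCh38.p14) for 42 of the 57 genes. It is shown for 5 chosen genes, COL11A1, PCOLCE, PLOD2, P4HA1 and COL12A1, as the 250 bases before the annotated start, 5′ to 3′ on the strand of the gene. Of these, P4HA1 was less than 1.5-fold different. COL3A1, COL9A3 and COL14A1, which were at least 1.5-fold different, had no such sequence. Capitals mark matches, on either strand, to 6 short motifs: ACGTG and GCGTG, the core letters bound by hypoxia-inducible factors, the CCAAT box, the TATA box TATAAA, the SOX factor letters AACAAT and the TEAD factor letters CATTCC. A match is a description of letters and not a binding site. COL16A1, also at least 1.5-fold different, had sequence with 0 matches to these motifs and is not printed.
COL11A1, chr1:103108523-103108772, minus strand: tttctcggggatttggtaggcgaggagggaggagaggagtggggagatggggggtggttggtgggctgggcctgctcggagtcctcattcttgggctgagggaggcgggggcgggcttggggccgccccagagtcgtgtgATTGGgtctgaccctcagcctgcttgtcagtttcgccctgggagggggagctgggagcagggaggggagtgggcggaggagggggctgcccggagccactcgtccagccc
PCOLCE, chr7:100602113-100602362, plus strand: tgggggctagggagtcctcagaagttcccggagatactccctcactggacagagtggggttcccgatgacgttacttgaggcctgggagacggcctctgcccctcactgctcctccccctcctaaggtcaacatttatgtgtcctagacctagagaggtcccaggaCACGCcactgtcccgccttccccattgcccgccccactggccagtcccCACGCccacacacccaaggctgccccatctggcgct
PLOD2, chr3:146161185-146161434, minus strand: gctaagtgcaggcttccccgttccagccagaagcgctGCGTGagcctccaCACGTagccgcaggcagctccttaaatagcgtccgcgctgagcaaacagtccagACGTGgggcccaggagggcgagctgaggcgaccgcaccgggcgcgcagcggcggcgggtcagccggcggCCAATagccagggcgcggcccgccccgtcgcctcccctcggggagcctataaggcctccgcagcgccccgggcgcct
P4HA1, chr10:73096867-73097116, minus strand: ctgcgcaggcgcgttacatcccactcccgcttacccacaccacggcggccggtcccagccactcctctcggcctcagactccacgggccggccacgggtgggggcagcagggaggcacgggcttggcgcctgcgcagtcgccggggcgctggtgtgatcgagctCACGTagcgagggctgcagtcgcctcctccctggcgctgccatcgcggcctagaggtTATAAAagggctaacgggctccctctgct
COL12A1, chr6:75206054-75206303, minus strand: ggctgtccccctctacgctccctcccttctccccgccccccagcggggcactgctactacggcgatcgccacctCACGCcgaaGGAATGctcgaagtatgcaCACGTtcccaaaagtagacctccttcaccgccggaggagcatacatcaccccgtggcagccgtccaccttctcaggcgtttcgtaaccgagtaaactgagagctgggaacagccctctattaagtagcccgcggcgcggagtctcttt

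PLOD2 and P4HA1 are known targets of hypoxia-inducible factors, and in this window PLOD2 held 2 matches to ACGTG and 1 to GCGTG, and P4HA1 1 match to ACGTG. LOX, which is known as such a target too, held 4 matches to ACGTG and lay at -0.13. PCOLCE held 2 matches to GCGTG, and COL11A1 held none to either core and 1 to CCAAT. COL12A1 held 1 match to each core and 1 to CATTCC. P4HA1 alone of the 5 held TATAAA, from position -29 to position -24, where -1 is the last base before the start. Such letters are common: of 27303 promoters of the same length, 18.7% held ACGTG, 31.9% GCGTG, 33.0% CCAAT, 11.1% TATAAA, 9.19% AACAAT and 11.9% CATTCC. Of the 42 collagen and enzyme promoters, 8 held ACGTG, 14 GCGTG, 11 CCAAT, 5 TATAAA, 1 AACAAT and 2 CATTCC.

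Chains that assemble into 1 protein were compared by sign. Over 19 pairs of partner chains of types I, IV, V, VI, VIII, IX and XI, 9 had the same sign, and some chains enter several pairs. Among all 19775 genes, 9770 lay above and 9402 below 0, so unrelated genes would also share a sign in only part of their pairs. The count is therefore no result about partner chains. The widest gaps on the log2 scale were 1.92 between COL9A1 and COL9A3, and -1.62 and -1.55 for COL11A1 minus COL2A1 and COL11A1 minus COL11A2. Among 7 pairs of collagen genes that are neighbours on a chromosome, 4 had the same sign; COL3A1 with COL5A2 was the pair with the largest values, and COL6A1 with COL6A2 was lower in both. Pairs at small values can take either sign within probe set error, so these counts describe the table only.

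Other genes of collagen synthesis, binding and sensing were taken from lists of general knowledge. Of 21 measured genes of collagen biosynthesis and turnover, 2 passed 2-fold, both lower on the CD24 shRNA array, beside 0.485% of all genes lower, and the median was -0.06. FKBP14, a prolyl isomerase of the endoplasmic reticulum that aids collagen folding, lay at -1.14 ± 0.35 (SD, 3 probe sets, from -1.43 to -0.75), or 2.20-fold lower. P3H3, of the prolyl 3-hydroxylase family, was 2.14-fold lower and P3H4, its relative, 1.85-fold lower, each on 1 probe set. In mice the P3H3 and P3H4 proteins are known to work in a complex with lysyl hydroxylase 1, the PLOD1 product, and PLOD1 lay at 0.17. The 8 measured collagen receptors, integrin chains and discoidin receptor 2 among them, all lay between -0.03 and 0.28.

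Of 14 genes of proteins that bind collagen fibrils, 2 passed 2-fold, both higher on the CD24 shRNA array, beside 0.632% of all genes higher, and the median was -0.03. THBS1, thrombospondin 1, lay at 1.60 ± 1.01 (SD, 7 probe sets, from 0.05 to 2.90). LUM, lumican, a proteoglycan on type I and III fibrils, lay at 1.12 ± 1.41 (SD, 2 probe sets, both dim). Decorin (DCN), the best known of this class, lay at 0.04 ± 0.23 (SD, 7 probe sets, 4 of them dim). Fibronectin (FN1) lay at 0.35 ± 0.39 (SD, 7 probe sets, from -0.06 to 1.14).

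**Figure D4:**
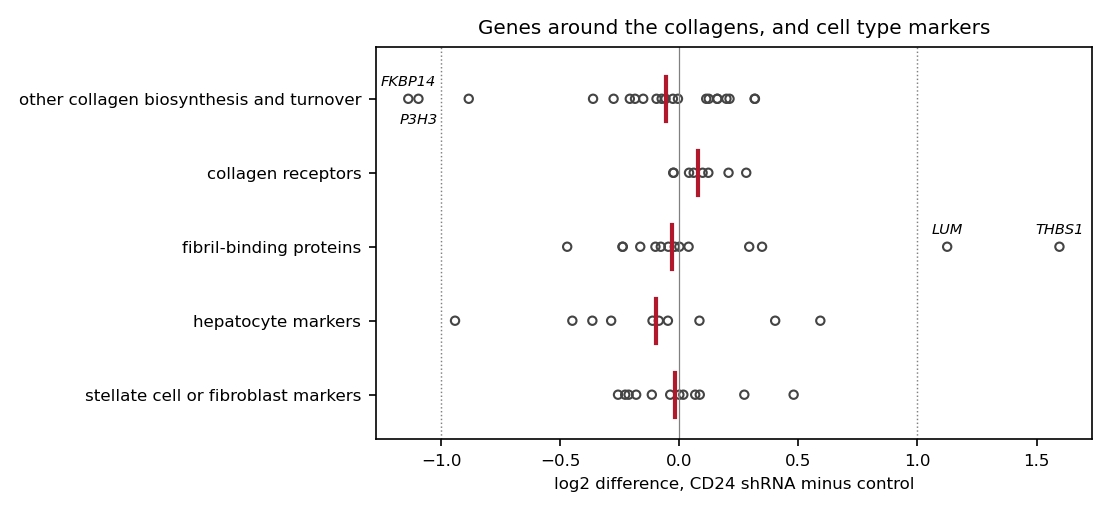
Log2 difference, CD24 shRNA minus control, of genes that act with collagens and of cell type markers. Each circle is a gene, each red bar the median of its list, dotted lines mark 2-fold and genes beyond them are named. FKBP14 and P3H3 lie below the lower line, LUM and THBS1 above the upper one, and no cell type marker lies beyond either.

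Both cultures were labelled as Huh7 cells. Markers of stellate cells or fibroblasts and of hepatocytes were set beside the collagen values. Of 12 stellate cell or fibroblast markers, 5 lay above and 6 below 0, with LRAT at 0, a range of -0.26 to 0.48 and a median of -0.02. Their summed centred value was -0.06 on the CD24 shRNA array and 0.06 on the control array. PDGFRB, the classical receptor of these cells, lay at 0.02 and THY1 at -0.18 ± 0.32 (SD, 3 probe sets). Among the 12 markers, 0 passed 1.5-fold in either direction, beside 2.63% of all genes higher and 2.38% lower. Of 10 hepatocyte markers, 3 lay above and 7 below 0, with a median of -0.10, a summed centred value of -0.61 on the CD24 shRNA array and 0.61 on the control array. AHSG was lowest at -0.94 ± 0.13 and FGB highest at 0.59 ± 0.02 (SD, 2 probe sets each), and these were the 2 beyond 1.5-fold. The digits placed 1 of the 25 hepatocyte marker probe sets under 4, against 9 of the 26 for stellate cells or fibroblasts. Of all probe sets with 1 symbol, 25.6% were placed there. Such probe sets are thus common on the array, and 9 of 26 does not show that stellate cells or fibroblasts were absent. A probe set not placed under 4 can be dim as well. Without levels the labelled cell type can be checked no further. The part of either marker list in the collagen values was not tested.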

How the data were processed

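RNA of 2 cultures was measured on 1 array each. The authors' log2 values came from RMA (background correction, quantile normalisation and probe summary), per the submitters' processing notes; for its version and any later step the sources used here give nothing. In this deposited log2 table the 2 values of each probe set sum to 0 within 1e-06, so levels are missing. Of 54675 probe sets, 41091 named 1 symbol in GEO's platform annotation, 1801 several and 11721 none; 62 control probe sets were left out. All 57 Entrez IDs matched RefSeq, which changed 0 symbols. SERPINH1 was excluded by rule.

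Gene values are means over probe sets, computed with Python 3.11.15 and pandas 2.3.3. A probe set was called dim where a value had a binary step too fine for single-precision numbers of 4 or more; this reveals only part of the dim probe sets. The calculations were tested on simulated data with 200 changed genes. No test across samples was possible. Genes at least 1.5-fold different, or with a probe set at least 2-fold different, were described by probe set, with partner chains beside them. The members and lists were chosen with earlier results of these data known, and the division into subgroups, the probe set values of some smaller members (COL5A2, COL7A1, COL27A1, P4HA1, LOX and others) and DCN, FN1, LRAT, PDGFRB and THY1 after the values were seen. Alternatives covered the combination of probe sets, probe set type, dim probe sets, scaling and threshold.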

Additional observations from a re-analysis of the deposited data

How the results depend on the processing

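COL11A1 was at least 2-fold lower with the median or the largest of its probe sets, without dim probe sets and without those of the _s_at or _x_at kind. PCOLCE and COL9A3 have 1 probe set each, so those settings cannot move them, and COL9A3 had no value without the _s_at or _x_at kind. All 3 stayed at least 2-fold lower when scaled on hybridisation controls. Without that scaling all 3 passed 3-fold, beside 0.086% of all genes lower at 3-fold. Centring on all genes subtracts 0. The number of genes higher was 3 in place of 1 with the largest probe set per gene (COL3A1, COL12A1 and LOXL2, the last at 1.13 and COL12A1 at 1.77), a setting that also takes the share of all genes to 1.53% higher and 1.06% lower; it was also 3 at 1.5-fold, where 5 in place of 3 were lower. Without the _s_at or _x_at kind, 47 genes had a value, COL3A1 lay at 0.44 on dim probe sets only and COL12A1 at 1.11 was the gene higher. Group medians moved by less than the pooled probe set SD of 0.27 in every alternative run. That SD describes single probe sets and is no error of a median, so the margin is wide for medians between -0.12 and 0.05. Signs of small medians could turn. Scaled on the hybridisation controls, the fibrillar median was 0.01, that of basement membrane chains 0.10 and that of enzymes -0.01, beside 0.11 for all genes. In that setting 34 in place of 30 of the 57 genes lay above 0. Without dim probe sets the basement membrane median was 0.20 (4 genes) and that of all members -0.01, and without the _s_at or _x_at kind that of all members was -0.05. For the 9 genes at least 1.5-fold different or with a probe set beyond 2-fold, 3 of 50 recomputed values moved by more than the SD over probe sets and 0 changed sign. Many of the 50 could not move that far. Centring subtracts 0, the hybridisation scaling shifts every gene by 0.11, and COL9A3, PCOLCE and COL16A1 have 1 probe set each. The count is therefore no measure of stability. Dim probe sets, 52 of 143, limit small differences, as do 1 array per group and disagreement between probe sets. No paired analysis was possible because each group holds 1 array.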
